A study of Mus musculus with 6 samples.

Results

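The Hippo-YAP genes examined here were 10 genes, Yap1, Wwtr1, Tead1, Lats1, Lats2, Ctgf, Cyr61, Ankrd1, Amotl2 and Axl, out of 24063 genes in the count table. They were taken by their symbols as members and targets of the pathway. The libraries are RNA-seq of tumors that arose in the livers of 3 WT (NR2E3+/+) and 3 Nr2e3-/- (NR2E3-/-) male mice, both labelled C57BL/6, with 1 library per tumor. NR2E3 is an orphan nuclear receptor, and the comparison asks which transcripts differ in tumors that form without it. All mice had received 25 mg per kg of diethylnitrosamine (DEN), a liver carcinogen, at 15 days of age, and the tumors were taken at the 24-week time point. The knockout was described in earlier work, and whether the WT mice were littermates is not given in the sources used here. The counts are of bulk tissue, in which fewer cells of a type and less RNA per cell cannot be told apart.

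Library totals ranged from 15376261 to 28690279 counts. Nr2e3 itself had 0 counts in all 6 libraries, so the genotype could not be checked from it. The summed level of 8 hepatocyte markers was 128970 to 158280 CPM (counts scaled to a common library size and normalized for composition) in WT tumors and 114100 to 135670 CPM in Nr2e3-/- tumors, led by Alb. Nr2e3-/- replicate 1 lay closer to the WT tumors than the other Nr2e3-/- libraries did. Its median absolute log2 difference from the WT mean was 0.207, against 0.347 and 0.336 for Nr2e3-/- replicates 2 and 3. Each WT library differed from the mean of the other WT libraries by 0.134 to 0.149. For this reason the results are also given without Nr2e3-/- replicate 1, which also had the fewest counts (15376261). Because it was picked by its nearness to the WT tumors, leaving it out tends to widen the group differences. The p-values without it are therefore no separate support.

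The Hippo pathway is a kinase cascade that restrains growth and sets organ size, and the liver is among the organs most responsive to it. The LATS1 and LATS2 kinases phosphorylate the coactivators YAP (Yap1) and TAZ (Wwtr1), which are then held in the cytoplasm or degraded. Unphosphorylated YAP and TAZ enter the nucleus and bind TEAD factors such as TEAD1, which carry them to DNA. Ctgf, Cyr61, Ankrd1, Amotl2 and Axl are widely used readouts of this activity, and Amotl2 and Lats2 are at once targets and restraints of YAP. Most of the control acts on the proteins, which RNA counts do not measure.

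TEAD factors recognize a short element with the core GGAATG, which reads CATTCC on the other strand. Promoter windows from RefSeq (GRCm38.p6), from 250 bases before to 50 bases after an annotated transcript start, some genes having more than 1, were searched on both strands for this core alone. Entries were found for 8 of the 10 genes, all but Tead1 and Ctgf. The core was present in 7 of the 8, the exception being Lats1, against 16.6% of the 27025 genes in the table. A match is a stretch of letters and not a measured binding site. Of the 10 genes, Cyr61 and Yap1 had the smallest p-values below. The 250 bases before their starts are shown, with the core in capitals. They lie at chr3:145649986-145650235 and chr9:8004597-8004846 and are written along the minus strand on which both genes are read.

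Cyr61: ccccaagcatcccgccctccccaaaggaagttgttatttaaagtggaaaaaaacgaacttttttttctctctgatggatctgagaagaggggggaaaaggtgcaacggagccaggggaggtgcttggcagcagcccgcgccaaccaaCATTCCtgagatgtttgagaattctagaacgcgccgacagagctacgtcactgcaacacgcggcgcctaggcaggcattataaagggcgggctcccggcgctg
Yap1: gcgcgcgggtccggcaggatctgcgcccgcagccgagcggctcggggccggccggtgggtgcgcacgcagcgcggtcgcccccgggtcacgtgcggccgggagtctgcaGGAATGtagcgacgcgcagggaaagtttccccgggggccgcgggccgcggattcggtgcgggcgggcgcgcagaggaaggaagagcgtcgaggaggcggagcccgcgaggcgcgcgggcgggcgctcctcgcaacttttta

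For the other genes with the core, 30-base windows around it are shown to compare its flanks, on the strand of each gene. Distances are from the RefSeq transcript start of the window. Those starts lie inside the GENCODE gene spans given below for Lats2, Ankrd1 and Amotl2, whose annotated spans begin farther upstream. The core began 136 bases before the start in Wwtr1, 65 in Amotl2 and 233 in Axl. Ankrd1 held it at 210 and again at 123 bases before the start, the only one of these genes with more than 1 copy. In Lats2 it began at base 5 after an internal start. The windows lie at chr3:57576029-57576058 (Wwtr1), chr9:102717727-102717756 (Amotl2, plus strand), chr7:25788949-25788978 (Axl), chr19:36120037-36120066 and chr19:36119950-36119979 (Ankrd1), and chr14:57746102-57746131 (Lats2), on the minus strand except for Amotl2.

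Wwtr1: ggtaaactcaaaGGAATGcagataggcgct
Amotl2: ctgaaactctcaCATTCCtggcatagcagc
Axl: ggaaattctacaGGAATGtttaccagaccc
Ankrd1, distal: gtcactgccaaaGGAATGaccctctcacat
Ankrd1, proximal: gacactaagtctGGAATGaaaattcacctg
Lats2: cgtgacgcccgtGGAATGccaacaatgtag

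All 10 genes had enough counts to be tested, with 3 libraries in each group. edgeR's quasi-likelihood test, two-sided and adjusted by Benjamini-Hochberg over 13572 genes, gave 0 of the 10 an adjusted p-value under 0.05, as it did for all but 0.0958% of the genes tested. At an unadjusted p-value under 0.05 there were 2, Yap1 on the higher and Cyr61 on the lower side in Nr2e3-/- tumors. Of all genes tested, 21.5% reached that level, 11.8% higher and 9.72% lower, so 2 of 10 is near the background. Yap1 and Cyr61 were also the only ones of the 10 whose groups did not overlap, which held for 26.8% of all genes. Of the 10 log2 fold changes (Nr2e3-/- minus WT), 5 were positive and 5 negative. Their median was 0.0087, and that of all genes tested was 0.0073. DESeq2 gave 2 of the 10 genes an adjusted p-value under 0.05 (5.81% of the genes it tested), Yap1 and Cyr61. It was run without a filter on counts, on 18808 genes, so that share includes genes with few counts. A fit by limma-voom with sample quality weights, named limma-voom from here on, gave 3 (17.4%), adding Amotl2. Without Nr2e3-/- replicate 1, edgeR gave 4 of the 10, Yap1, Tead1, Cyr61 and Amotl2, where 21.8% of all genes had such a value.

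**Figure D1:**
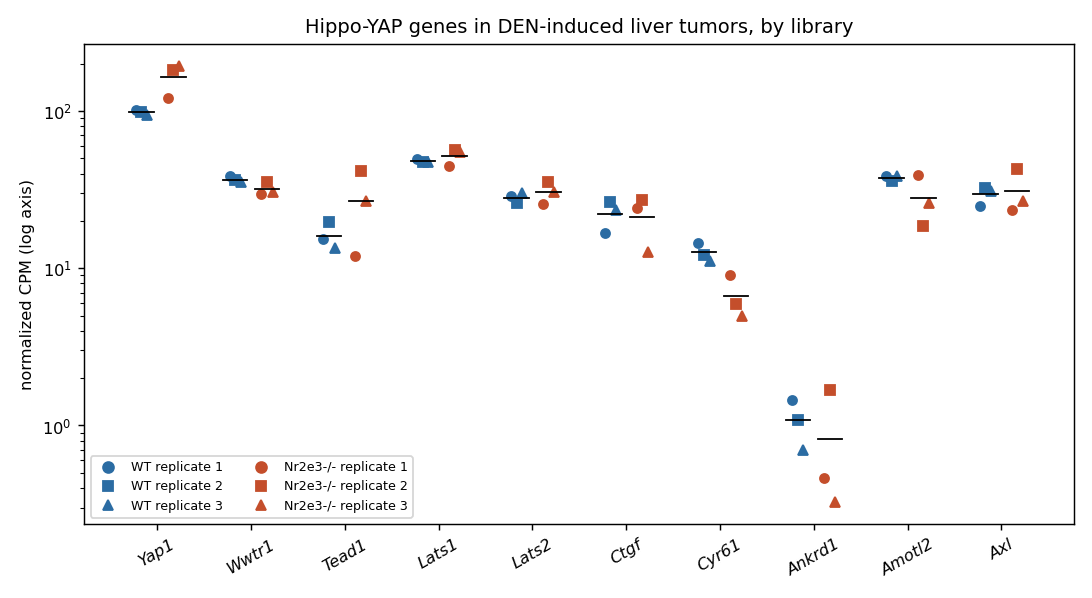
Normalized CPM (log axis) of the 10 Hippo-YAP genes in each of the 6 liver tumor libraries, WT in blue and Nr2e3-/- in red, with replicates by symbol and black bars for the group means. Yap1 is higher (121 to 194 against 94.2 to 102) and Cyr61 lower (4.98 to 9.07 against 11.2 to 14.6) in all 3 Nr2e3-/- libraries than in any WT library.

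Yap1, the coactivator itself, had the highest level of the 10 genes. It lies on chromosome 9 of GRCm38 from 7931999 to 8004596 and had 102, 97.9 and 94.2 CPM in WT tumors and 121, 182 and 194 CPM in Nr2e3-/- replicates 1, 2 and 3. Every Nr2e3-/- tumor lay above every WT tumor, and replicate 1 was the nearest to them. The means were 98.1 ± 3.92 CPM (SD, n = 3) and 166 ± 39.0 CPM (SD, n = 3), and the fitted difference was 1.69-fold, with a 95% interval from 1.26 to 2.27. Its log2 fold change was 0.76 (standard error 0.18, unadjusted p = 0.00379, adjusted p = 0.111 from edgeR). Across 13 other settings it stayed between 0.63 and 0.95 with an unadjusted p-value under 0.05 in each, while the adjusted p-value ran from 0.00318 without Nr2e3-/- replicate 1 to 0.359. An annotated RNA on the opposite strand, Gm20416, overlaps exons of Yap1, and without a stated strand in the counting its reads cannot be told apart from those of Yap1.

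Wwtr1, which encodes the paralog TAZ, did not share the higher level of Yap1. It lies on chromosome 3 (57455649 to 57575910) and had 38.6, 36.2 and 35.3 CPM in WT and 29.9, 35.3 and 30.4 CPM in Nr2e3-/- tumors. Replicates 1 and 3 of the knockout were below all WT tumors, and replicate 2 was level with the lowest of them. The fitted log2 difference was -0.20, with a 95% interval from -0.46 to 0.055 (adjusted p = 0.317 from edgeR).

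Within a library the ratio of Yap1 to Wwtr1, each per kilobase of exon, was 1.37, 1.39 and 1.38 in WT tumors. In Nr2e3-/- tumors it was 2.10, 2.66 and 3.29, above every WT value in all 3. The difference was 0.94 on the log2 scale, with p = 0.1 in a two-sided exact permutation test, below which 3 against 3 libraries cannot go. Being taken within a library, this ratio does not depend on how libraries were scaled to each other.

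Tead1, the DNA-binding partner, varied more between Nr2e3-/- tumors than between the groups. It lies on chromosome 7 (112679318 to 112906807) and had 15.4, 19.6 and 13.4 CPM in WT tumors and 12.05, 41.3 and 26.8 CPM in Nr2e3-/- replicates 1, 2 and 3. Replicate 1 was below all WT tumors and the other replicates above all of them, so the groups overlapped. In edgeR the log2 fold change was 0.73, with a 95% interval from -0.21 to 1.68 (adjusted p = 0.322 from edgeR). It was 1.09 without Nr2e3-/- replicate 1 (adjusted p = 0.0206 from edgeR) and 0.27 without replicate 2, and adjusted p-values over the settings went up to 0.661.

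Lats1 and Lats2, the kinases that phosphorylate YAP and TAZ, differed little between the groups. Lats1 (chromosome 10, 7681214 to 7716460) had 49.3, 47.2 and 47.7 CPM in WT and 44.6, 56.4 and 55.1 CPM in Nr2e3-/- tumors, or 0.12 as log2 fold change with a 95% interval from -0.16 to 0.39 (adjusted p = 0.581 from edgeR). Lats2 (chromosome 14, 57689662 to 57758388) had 28.6, 25.9 and 29.9 CPM in WT and 25.6, 35.2 and 30.4 CPM in Nr2e3-/- tumors, or 0.11 as log2 fold change with an interval from -0.22 to 0.44 (adjusted p = 0.662 from edgeR) that turned to -0.0047 without Nr2e3-/- replicate 2. For both kinases Nr2e3-/- replicate 1 was below all WT tumors and replicate 2 above all of them. The ratio of Lats1 to Lats2 per kilobase averaged 1.64 in both groups, with an SD of 0.107 in WT and 0.101 in Nr2e3-/- tumors (n = 3 each, two-sided exact permutation test, p = 0.8). An annotated gene on the same strand, Gm49361, shares exon sequence with Lats2.

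Cyr61 and Ctgf encode the secreted matricellular proteins CCN1 and CCN2 and are the classical targets of YAP and TEAD. Cyr61 (Ccn1 in current annotation, chromosome 3, 145646976 to 145649981) had 14.6, 12.2 and 11.2 CPM in WT tumors and 9.07, 5.94 and 4.98 CPM in Nr2e3-/- tumors. All 3 Nr2e3-/- tumors were below all WT tumors, and again replicate 1 was nearest to them. The means were 12.6 ± 1.74 CPM (SD, n = 3) and 6.66 ± 2.14 CPM (SD, n = 3), and the fitted level in Nr2e3-/- tumors was 0.525 of that in WT, with a 95% interval from 0.355 to 0.776. Its log2 fold change was -0.93 (standard error 0.24, unadjusted p = 0.00581, adjusted p = 0.123 from edgeR). It stayed between -1.20 and -0.76 over 13 other settings with an unadjusted p-value under 0.05 in each, and the adjusted p-value ran from 0.0082 without Nr2e3-/- replicate 1 to 0.367.

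Ctgf (Ccn2, chromosome 10, 24595442 to 24598683) did not share this pattern. It had 16.7, 26.5 and 23.3 CPM in WT and 24.03, 27.0 and 12.8 CPM in Nr2e3-/- tumors, so the highest and the lowest library were both Nr2e3-/-. The fitted log2 difference was -0.058, with a 95% interval from -0.75 to 0.64 (adjusted p = 0.920 from edgeR), and its sign turned without WT replicate 2 (0.090) or without Nr2e3-/- replicate 3 (0.21). An opposite-strand RNA, Gm15270, overlaps it. The other CCN genes tested, Nov, Wisp1 and Wisp2, were all at 3.94 CPM or less in every library. Wisp1 was highest of them in every library, and its log2 fold change was 0.39 (edgeR adjusted p = 0.556), while Nov had -0.88 (adjusted p = 0.283) and Wisp2 -0.68 (adjusted p = 0.541).

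Amotl2, an angiomotin family scaffold that binds and restrains YAP, had a pattern opposite to that of Tead1. It lies on chromosome 9 (102716672 to 102733418) and had 38.4, 36.0 and 38.7 CPM in WT and 39.5, 18.6 and 26.0 CPM in Nr2e3-/- replicates 1, 2 and 3. Replicate 1 was above all WT tumors, while the others were below all of them. In edgeR the log2 fold change was -0.44, with a 95% interval from -1.03 to 0.16 (adjusted p = 0.346 from edgeR). Without Nr2e3-/- replicate 1 it was -0.76 (adjusted p = 0.019 from edgeR), without replicate 2 it was -0.21, and limma-voom gave -0.57 (adjusted p = 0.0477). Over the settings the adjusted p-value went up to 0.618.

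Ankrd1, a nuclear ankyrin repeat protein best known from heart muscle, was near the lower end of what these libraries can measure. It lies on chromosome 19 (36111961 to 36120099) and had 38, 32 and 20 counts in WT and 7, 45 and 6 counts in Nr2e3-/- tumors, or 1.46, 1.08 and 0.694 CPM and 0.463, 1.67 and 0.324 CPM. The highest library and both of the lowest were Nr2e3-/-. Its log2 fold change was -0.31, with a 95% interval from -1.75 to 1.12 (adjusted p = 0.785 from edgeR). It moved to -1.45 without Nr2e3-/- replicate 2 and to 0.056 without replicate 3, with adjusted p-values of 0.207 and 0.972 from edgeR. Of 8 striated muscle markers 0 passed the filter, and the highest value of any of them in any library was 1.18 CPM (Ttn).

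Axl, a receptor tyrosine kinase of the TAM family, showed no separation of the groups. It lies on chromosome 7 (25757273 to 25788705) and had 24.998, 32.6 and 31.1 CPM in WT and 23.6, 43.0 and 26.6 CPM in Nr2e3-/- tumors. Nr2e3-/- replicate 1 was the lowest and replicate 2 the highest of all 6. The fitted log2 difference was 0.075, with a 95% interval from -0.48 to 0.63 (adjusted p = 0.869 from edgeR), and it turned to -0.015 with upper quartile normalization, to -0.0069 with limma-voom, to -0.031 without WT replicate 1 and to -0.23 without Nr2e3-/- replicate 2. Its ligand Gas6 had 42.6 to 66.6 CPM in WT and 32.2 to 42.9 CPM in Nr2e3-/- tumors (log2 fold change -0.39, adjusted p = 0.315 from edgeR). For Pros1, a ligand of other TAM receptors, the log2 fold change was 0.27 (adjusted p = 0.329 from edgeR). Of the related receptors, Mertk had -0.10 (adjusted p = 0.681) and Tyro3 -0.023 (adjusted p = 0.983).

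**Figure D2:**
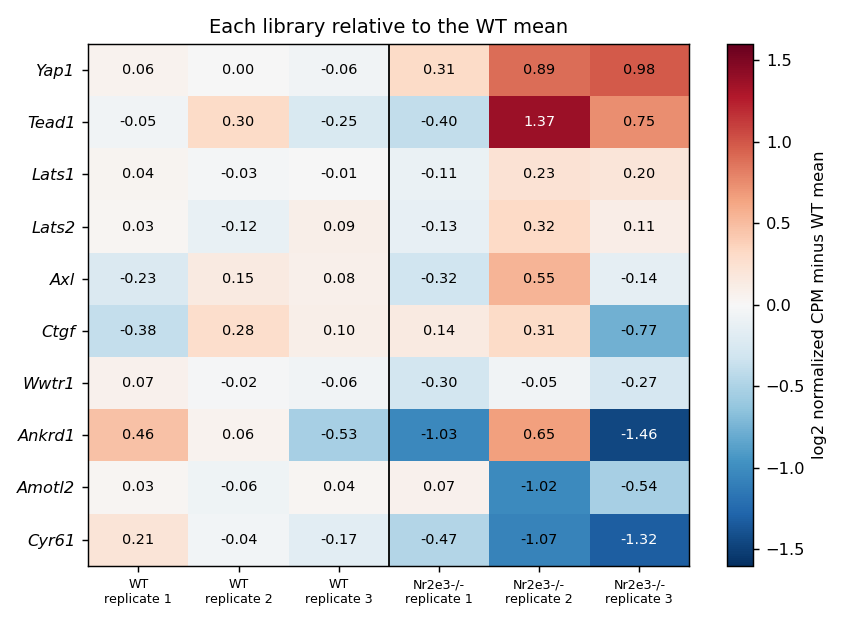
Log2 normalized CPM of each Hippo-YAP gene (rows) in each library (columns) minus the mean of the 3 WT libraries, with blue for lower and red for higher. Nr2e3-/- replicates 2 and 3 are 0.89 and 0.98 higher for Yap1 and 1.02 and 0.54 lower for Amotl2, while replicate 1 is 0.31 higher for Yap1 and 0.066 higher for Amotl2.

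The 10 genes varied more among Nr2e3-/- than among WT tumors. The SD of the log2 level was larger in the Nr2e3-/- group for all 10 of them, and for 76% of all genes tested. The median SD was 0.149 in WT and 0.449 in Nr2e3-/- tumors over the 10 genes, and 0.14 and 0.258 over all genes. Relative to the WT mean, Nr2e3-/- replicate 1 lay on the same side as both other Nr2e3-/- libraries for Yap1 (0.31 higher on the log2 scale), Cyr61 (-0.47) and Wwtr1 (-0.30). For Tead1 (-0.40), Lats1 (-0.11), Lats2 (-0.13) and Amotl2 (0.066) it lay on the opposite side to both.

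**Figure D3:**
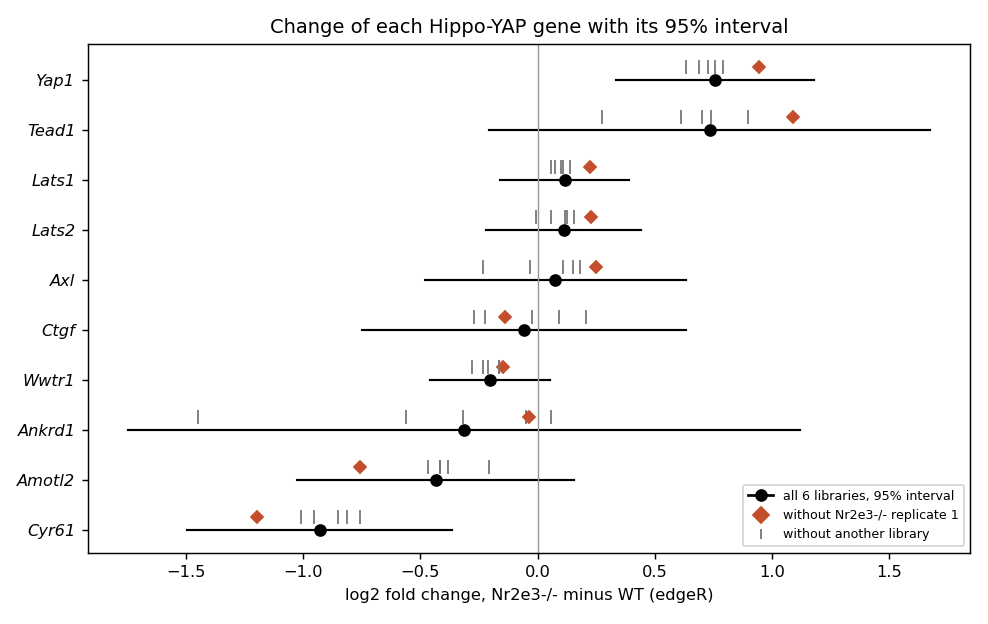
Log2 fold change of each Hippo-YAP gene, Nr2e3-/- minus WT, from edgeR with its 95% interval (black), and the same value with each library left out in turn (red diamonds for Nr2e3-/- replicate 1, gray ticks for the others). The intervals of Yap1 (0.33 to 1.18) and Cyr61 (-1.50 to -0.37) are the ones that do not include 0.

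Per kilobase of exon, which allows genes to be compared, Yap1 was the highest of the 10 genes at 10.6 ± 0.424 CPM per kb (SD, n = 3) in WT tumors. Ctgf followed with 7.75 ± 1.75, Wwtr1 with 7.68 ± 0.353, Lats1 with 6.59 ± 0.155, Cyr61 with 6.26 ± 0.861, Amotl2 with 6.00 ± 0.232 and Axl with 5.87 ± 0.799 CPM per kb. Lats2 had 4.04 ± 0.291, Tead1 1.19 ± 0.235 and Ankrd1 0.374 ± 0.133 CPM per kb. Neighbours in this order from Ctgf to Axl overlapped in their WT libraries except Wwtr1 and Lats1, while Yap1, Lats2, Tead1 and Ankrd1 each stood apart from the gene before or after them. In Nr2e3-/- tumors Yap1 had 17.9 ± 4.21 CPM per kb, and Cyr61, in 5th place in WT tumors, was in 8th place with 3.30 ± 1.06. These levels rest on the union of annotated exons in GENCODE M21, which need not be the isoforms used in liver.

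The wider pathway was followed in 63 further genes in 5 lists, of which 59 were tested. Ptpn14 is in the lists of upstream regulators and of YAP/TAZ targets alike, and is counted once in these totals. An adjusted p-value under 0.05 was reached by 0 of the 59 in edgeR, 5 in DESeq2 and 12 in limma-voom. Of all genes each method tested, 0.0958%, 5.81% and 17.4% had such a value. The DESeq2 share is over 18808 genes, not filtered by counts as the 59 were. At an unadjusted p-value under 0.05 in edgeR there were 15, 6 higher and 9 lower in Nr2e3-/- tumors. The share of 15 in 59 stands beside 21.5% of all genes. Their median log2 fold change was -0.038, with 27 above and 32 below 0. Without Nr2e3-/- replicate 1, 35 of them had an unadjusted p-value under 0.05, and 37.7% of all genes did.

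Among 11 genes of the kinase core, 6 were above and 5 below 0, with a median of 0.093. Taok3, a TAO kinase that can start the cascade, had 48.6, 65.0 and 57.6 CPM in WT and 44.4, 29.4 and 30.4 CPM in Nr2e3-/- tumors (log2 fold change -0.72, unadjusted p = 0.00679, adjusted p = 0.127 from edgeR). Stk4, which encodes MST1, the kinase that activates LATS, had 25.004 to 30.2 CPM in WT and 30.8 to 35.0 CPM in Nr2e3-/- tumors (0.28, adjusted p = 0.220). Stk38, a kinase related to LATS, had a log2 fold change of -0.26 (adjusted p = 0.199), and the groups did not overlap for any of these 3. Sav1, the scaffold of MST kinases, had 0.49 (adjusted p = 0.298) with overlapping groups.

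Among 17 upstream regulators, 10 were lower and 7 higher, with a median of -0.28. An unadjusted p-value under 0.05 in edgeR was reached by 4, 2 higher and 2 lower, where 21.5% of all genes had one. Wwc2, a scaffold of the KIBRA family, had 23.2, 22.2 and 25.7 CPM in WT and 12.98, 17.5 and 14.9 CPM in Nr2e3-/- tumors, with no overlap (log2 fold change -0.65, unadjusted p = 0.0025, adjusted p = 0.101 from edgeR). The giant cadherin Fat4 had 2.46 to 3.86 CPM in WT and 1.78 to 1.92 CPM in Nr2e3-/- tumors (-0.83, adjusted p = 0.134), while its relative Fat1 was 52.9 to 63.0 CPM in WT and 65.4 to 84.7 CPM in Nr2e3-/- tumors (0.36, adjusted p = 0.187). Neither pair of groups overlapped. The angiomotins related to Amotl2, Amot and Amotl1, are named here after their values were seen. They had log2 fold changes of -0.28 and -0.37 (adjusted p = 0.291 and 0.233), each with groups that did not overlap.

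In the list of TEAD factors and partners, 8 genes were tested and 0 had an unadjusted p-value under 0.05. Tead3 had 8.03 to 9.19 CPM in WT and 8.28 to 12.8 CPM in Nr2e3-/- tumors (log2 fold change 0.34, adjusted p = 0.322 from edgeR). Tead4 was at 2.65, 0.677 and 0.416 CPM in WT and at 0.487 to 0.927 CPM in Nr2e3-/- tumors (-0.97, adjusted p = 0.457), and its value turned to 0.21 without WT replicate 1. Smad3, a TGF-beta effector that can join YAP and TEAD on DNA, had 0.76 (adjusted p = 0.293). Smad2, the related effector, had -0.26 (adjusted p = 0.236) with groups that did not overlap.

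Among genes of YAP retention and turnover, 8 of 10 were higher, with a median of 0.28, against 0.0073 for all genes. The list covers the 14-3-3 proteins, which hold phosphorylated YAP in the cytoplasm, and the casein kinases and F-box proteins that mark it for degradation. An unadjusted p-value under 0.05 in edgeR was found for 4 of the 10, 3 higher and 1 lower, where 21.5% of all genes had one. Fbxw11 and Btrc, F-box proteins of the same kind, went in opposite directions. Fbxw11 had 45.3, 41.9 and 42.5 CPM in WT and 45.4, 89.4 and 71.8 CPM in Nr2e3-/- tumors (log2 fold change 0.67, adjusted p = 0.169 from edgeR), and Btrc had 16.4, 17.9 and 16.5 CPM and 13.9, 8.32 and 8.87 CPM (-0.72, adjusted p = 0.136). Csnk1d had a log2 fold change of 0.40 (adjusted p = 0.153) and Ywhag, a 14-3-3 protein, 0.57 (adjusted p = 0.178).

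Among the other 14 YAP/TAZ target genes tested, 12 were lower and 2 higher in the knockout. Ptpn14 (log2 fold change -0.43) is among the lower genes both here and in the upstream regulators. The median log2 fold change of the 14 targets was -0.41, against 0.0073 for all genes. At an unadjusted p-value under 0.05 there were 4, all lower, where 21.5% of all genes reached that level and 9.72% were lower, and 0 passed after adjustment over all genes. Nt5e, the cell surface nucleotidase CD73, had 13.7, 13.2 and 8.46 CPM in WT and 7.94, 5.01 and 4.16 CPM in Nr2e3-/- tumors (-1.05, unadjusted p = 0.0082, adjusted p = 0.130 from edgeR), without overlap. Tgfb2, a growth factor of the TGF-beta family, had 3.53, 3.55 and 1.46 CPM and 0.927, 1.52 and 0.595 CPM (-1.45, adjusted p = 0.158). Arhgef17 had -0.59 (adjusted p = 0.214) and Gadd45a, a stress response gene, -0.55 (adjusted p = 0.213). Markers of stellate cells and fibroblasts lay on the same side, 9 of 11 lower with a median of -0.38, and their part in these values was not tested.

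**Figure D4:**
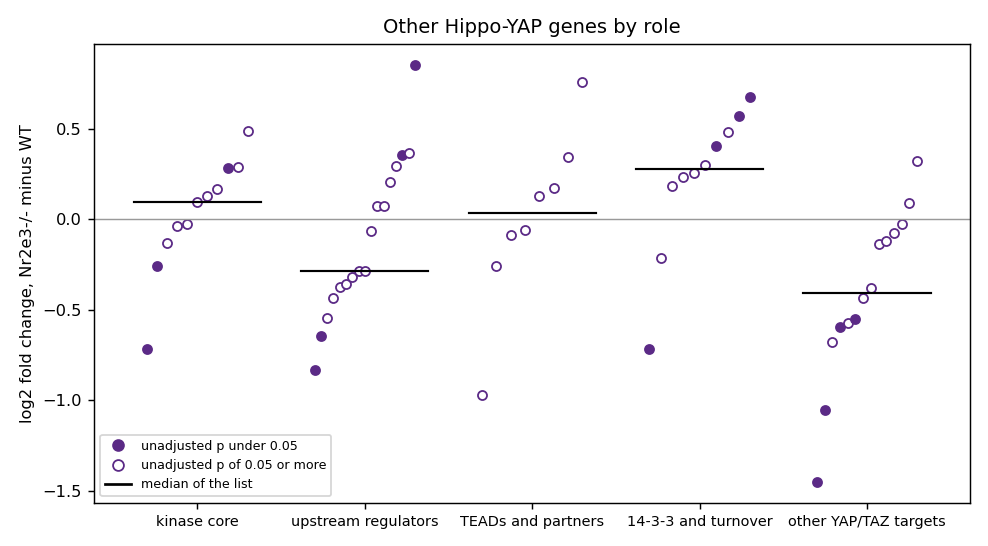
Log2 fold change, Nr2e3-/- minus WT, of the tested genes in 5 lists of further Hippo-YAP genes, with filled points for an unadjusted p-value under 0.05 and black bars for the list medians. The YAP/TAZ targets have a median of -0.41 and the 14-3-3 and turnover genes one of 0.28.

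Markers of other liver cells moved along with some of these genes, and their part in the results was not tested. The summed level of 11 stellate cell and fibroblast markers was 465, 378 and 415 CPM in WT and 421, 265 and 241 CPM in Nr2e3-/- tumors. Of these markers 0 had an unadjusted p-value under 0.05 and 0 were at 0. Like Cyr61, this sum was lowest in Nr2e3-/- replicates 3 and 2. In Nr2e3-/- replicate 1 the sum lay within the WT range, while Cyr61 was below all WT tumors. The 10 macrophage markers summed to 407, 505 and 506 CPM in WT and 356, 874 and 466 CPM in Nr2e3-/- tumors, with 0 of them at 0. All 10 had a log2 fold change above 0 (median 0.25), 0 with an unadjusted p-value under 0.05. As for Axl, Nr2e3-/- replicate 1 was lowest and replicate 2 highest.

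The 10 endothelial markers summed to 460 to 484 CPM in WT and 381 to 482 CPM in Nr2e3-/- tumors. Bile duct markers, 8 in number, summed to 68.8 to 128 CPM and 82.9 to 439 CPM, mostly from Spp1, and the 9 lymphoid markers to 10.6 CPM or less in every library. No marker of these lists was at 0 in all libraries. Yap1 is also made by bile duct cells. Among 6 bile duct markers with enough counts, 4 lay above and 2 below 0 in log2 fold change, 2 of them with an unadjusted p-value under 0.05. These were Epcam, with 1.80, 2.37 and 2.08 CPM in WT and 1.79, 10.95 and 5.79 CPM in Nr2e3-/- tumors, and Spp1, with 107, 46.0 and 47.1 CPM and 56.3, 410.2 and 171 CPM. Like Yap1, both were higher in Nr2e3-/- replicates 2 and 3 than in any WT tumor, while in replicate 1 they were not. The duct keratins Krt19 and Krt7 were at 1.79 CPM or less in every library.

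**Figure D5:**
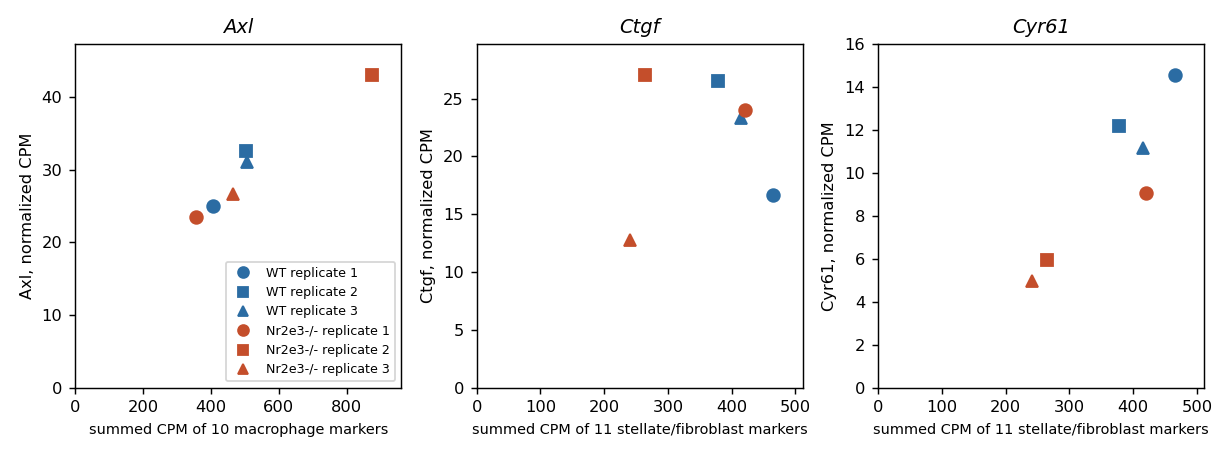
Normalized CPM of Axl, Ctgf and Cyr61 in each library against the summed CPM of macrophage markers (for Axl) or stellate cell and fibroblast markers (for Ctgf and Cyr61). Nr2e3-/- replicate 2 is highest in both Axl (43.0) and the macrophage sum (874), and Nr2e3-/- replicate 3 is lowest in both Cyr61 (4.98) and the stellate and fibroblast sum (241). Ctgf is also lowest in Nr2e3-/- replicate 3 (12.8), but it is highest in Nr2e3-/- replicate 2 (27.0), where that sum is 265.

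The genes closest in pattern over the 6 libraries were sought for the 3 genes with the widest range, Ankrd1, Tead1 and Cyr61. Likeness was the root mean square difference of log2 levels, each gene centered on its own mean. For Cyr61 these were Smtn (0.064), Hdac8 (0.068) and 2010107G23Rik (0.083). For Tead1 they were Nfkb2 (0.11), Ms4a4c (0.11) and Cd53 (0.11), and for the sparsely counted Ankrd1 they were Ifi44 (0.18), Kifc1 (0.20) and Cenpf (0.21).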

How the data were processed

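A TruSeq kit was used to make 1 RNA-seq library from each of 6 liver tumors, 3 of WT and 3 of Nr2e3-/- males given DEN. The authors used TopHat to align the reads, which were single-end, to mm10, and FeatureCounts to count them per gene, and deposited raw counts. The versions and the strand setting are not given in the sources used here. Dose, age and time point come from the study's methods. The deposited scaled table and the authors' own comparison (fold changes and p-values) were not used.

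Counts were filtered with filterByExpr (minimum count 10, minimum total 15), normalized by TMM and tested with edgeR 4.0.16 in R 4.3.3 (quasi-likelihood F test). Log2 levels used a prior count of 2. Intervals are 95% intervals of the fitted fold change and, like the p-values, cover the spread between the 6 libraries. The study gives 3 mice per group, and the labels number the tumors without saying more about their independence. Depth per library (15376261 to 28690279 counts) limits genes such as Ankrd1. Alternatives were RLE and upper quartile normalization, DESeq2 1.42.0, limma-voom 3.58.1 with sample quality weights, other filters, the replicate block and leaving out each library. The code was checked on simulated counts.

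The 10 genes and all lists were chosen with earlier results of these data known, and the lists were written from memory. Named are the 10 genes and, from each list, up to 4 genes with the smallest p-values. Some genes named by this rule are not reported here. Positions, exon lengths and overlapping genes came from GENCODE M21 and promoters from RefSeq, both on GRCm38. Figures were drawn in matplotlib 3.10.9 (Python 3.11.15, pandas 2.3.3).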

Additional observations from a re-analysis of the deposited data

How the results depend on the processing

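Without Nr2e3-/- replicate 1, with DESeq2 (which also tested more genes, 18808 against 13572) and with limma-voom (which also weighted the libraries by quality), more genes passed than in edgeR with all 6 libraries, among the 10 genes and among all genes alike. The number of the 10 genes with an adjusted p-value under 0.05 was 0 in edgeR, 2 in DESeq2, 3 in limma-voom and from 0 to 4 when each library was left out in turn. At an unadjusted p-value under 0.05 the number was 2, against 5 in limma-voom and 2 to 5 with a library left out (4 without Nr2e3-/- replicate 2, adding Wwtr1 and Ankrd1). For the 59 further Hippo-YAP genes it was 15, against 31 in limma-voom and 9 with the replicate block. With a library left out it ran from 7 to 35 (7 without Nr2e3-/- replicate 3, 8 without WT replicate 2 or WT replicate 3, 35 without Nr2e3-/- replicate 1). Of all genes tested, 21.5% reached that level in edgeR, 36.7% in limma-voom and 18% with the replicate block. With a library left out the share ran from 12.2% (without Nr2e3-/- replicate 3) to 37.7% (without Nr2e3-/- replicate 1). Log2 fold changes that changed sign when a library was left out ranged from -0.0047 to 0.23 for Lats2, -0.27 to 0.21 for Ctgf, -1.45 to 0.056 for Ankrd1, -0.23 to 0.25 for Axl, -1.38 to 0.21 for Tead4, -0.016 to 0.68 for Wisp1 and -0.27 to 0.54 for Tyro3. Axl also turned with upper quartile normalization (-0.015) and limma-voom (-0.0069), and Tyro3 with limma-voom (0.19). The causes were not tested. Upper quartile normalization shifted the median of all genes by -0.086. With at least 10 counts in every library, Ankrd1 and 4 other named genes gave no value.

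The replicate numbers were not taken as pairs. Same-numbered libraries deviated together with correlations of -0.077, 0.22 and 0.023, and differently numbered ones with -0.265 to 0.225. With 3 libraries in each group, these values cannot settle whether the numbers pair the tumors. With the replicate block Yap1 and Cyr61 were still the 2 of the 10 genes with an unadjusted p-value under 0.05 in edgeR.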

Other observations

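YAP responds to tension in the actin cytoskeleton, and its targets overlap with those of SRF and its coactivators. Of 15 tested genes of SRF, MRTF and the cytoskeleton, 12 were higher and 3 lower in the knockout, and the median of their log2 fold changes was 0.24. At an unadjusted p-value under 0.05 there were 3, all higher, where 21.5% of all genes reached that level and 11.8% were higher, and 0 had an adjusted p-value under 0.05 in edgeR. Tagln, an actin-binding protein, had 16.2, 15.2 and 15.3 CPM in WT and 20.8, 20.2 and 18.9 CPM in Nr2e3-/- tumors (log2 fold change 0.36, adjusted p = 0.138 from edgeR), with no overlap and with Nr2e3-/- replicate 1 the highest. Vcl, which encodes the focal adhesion protein vinculin, had 68.5, 67.8 and 59.3 CPM in WT and 67.2, 116 and 97.0 CPM in Nr2e3-/- tumors (0.52, adjusted p = 0.195). Mkl1, an SRF coactivator, had 10.5, 9.57 and 8.08 CPM and 8.21, 26.4 and 19.0 CPM (0.94, adjusted p = 0.214), and its relative Mkl2 had 0.24 (adjusted p = 0.257).

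TGF-beta signaling shares Ctgf as a target with YAP. Of 10 genes listed for it and tested, 7 were higher and 3 lower, with a median log2 fold change of 0.14. At an unadjusted p-value under 0.05 in edgeR there were 2, 1 higher and 1 lower, where 21.5% of all genes reached that level. Tgfb2 (-1.45), Smad2 (-0.26), Smad3 (0.76) and Smad4 (0.17) were counted in other lists. The receptor Tgfbr2 had 92.1, 67.4 and 68.9 CPM in WT and 86.5, 124 and 116 CPM in Nr2e3-/- tumors (0.52, adjusted p = 0.177 from edgeR). The inhibitory Smad7, itself a target of the pathway, had 12.8, 20.2 and 20.9 CPM and 13.1, 11.2 and 11.1 CPM (-0.61, adjusted p = 0.168). Skil, a repressor of SMAD activity, had 0.23 (adjusted p = 0.366).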
